A study of Mus musculus with 3 samples.

Results

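The locus described here is the HoxD gene cluster of the mouse with the gene deserts on both sides, a window of 1.9 Mb on chromosome 2 (build mm10, chr2:73800000-75700000). Its members were all LMX1B-bound intervals whose midpoint lay in that window, in the interval lists of 2 ChIP-seq samples. There were 11 of 1287 intervals in the first ChIP (0.855% of the list) and 38 of 4501 in the validation ChIP (0.844%). They were placed relative to 10 genes, Evx2, Hoxd13, Hoxd12, Hoxd11, Hoxd10, Hoxd9, Hoxd8, Hoxd4, Hoxd3 and Hoxd1, in this order from the centromeric to the telomeric end. The annotated Hoxd3 body starts before Hoxd4 and contains it, so Hoxd4 and Hoxd3 are ordered by their telomeric ends.

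Both samples were limb buds taken from C57BL/6 mice at embryonic day 12.5, with fore- and hindlimbs pooled (2 runs with 48 buds each, per the labels). Both were precipitated with the polyclonal anti-LMX1B antibody BMO8, and the title of the later sample names it a validation of that antibody. The first ChIP is named wild type in its tracks, while the tracks of the validation ChIP name no genotype. Each ChIP is 1 sample, so no spread between replicates exists and no test between conditions was possible. An input of pooled wild-type and mutant chromatin came with no interval list and is not analysed here. Interval lists hold no expression values, so the tissue could not be checked against marker genes. In a whole limb bud, the cells in which a site was bound cannot be told apart.

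LMX1B is the LIM homeodomain transcription factor that gives dorsal identity to limb mesenchyme, and proteins of this class bind AT-rich sites with a TAAT core. Hox genes of the HoxD cluster pattern the limb along its proximodistal axis. In the mouse limb, enhancers in the telomeric desert act on the middle of the cluster for the arm and forearm. Enhancers in the centromeric desert act on Hoxd13, its neighbours and Evx2 for the digits.

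The authors gave each interval a summit and a whole-number summit score, which has no stated unit. A score is used below only to rank an interval within its own list. The first ChIP has a median score of 20 (range 12 to 86) and the validation ChIP 11 (range 6 to 55). An interval is called shared when it and an interval of the second list have 1 bp or more in common. In the whole lists, 54.9% of first-ChIP intervals and 15.6% of validation intervals were shared. A deposited list named Active Regions repeats 57.1% of the first-ChIP intervals, and in the window 7 of 11, those that were shared.

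No interval of the cluster itself was listed in both ChIPs. All 7 shared intervals lay in the deserts, 3 on the centromeric and 4 on the telomeric side. Within the cluster (Evx2 to Hoxd1 with 5 kb on each side), the first ChIP listed 2 intervals and the validation ChIP 9, and none of these overlapped. In the deserts, 7 of 9 first-ChIP intervals (77.8%, 95% Clopper-Pearson interval 40 to 97.2%) and 7 of 29 validation intervals (24.1%, 10.3 to 43.5%) were shared. In the cluster, 0 of 2 first-ChIP intervals allowed a share of up to 84.2%, and 0 of 9 validation intervals up to 33.6%, and both ranges overlap those of the deserts. For the whole window the shares were 63.6% (7 of 11, 30.8 to 89.1%) and 18.4% (7 of 38, 7.74 to 34.3%), close to those of the whole lists. These intervals cover counting error only and treat neighbouring peaks as independent.

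**Figure D1:**
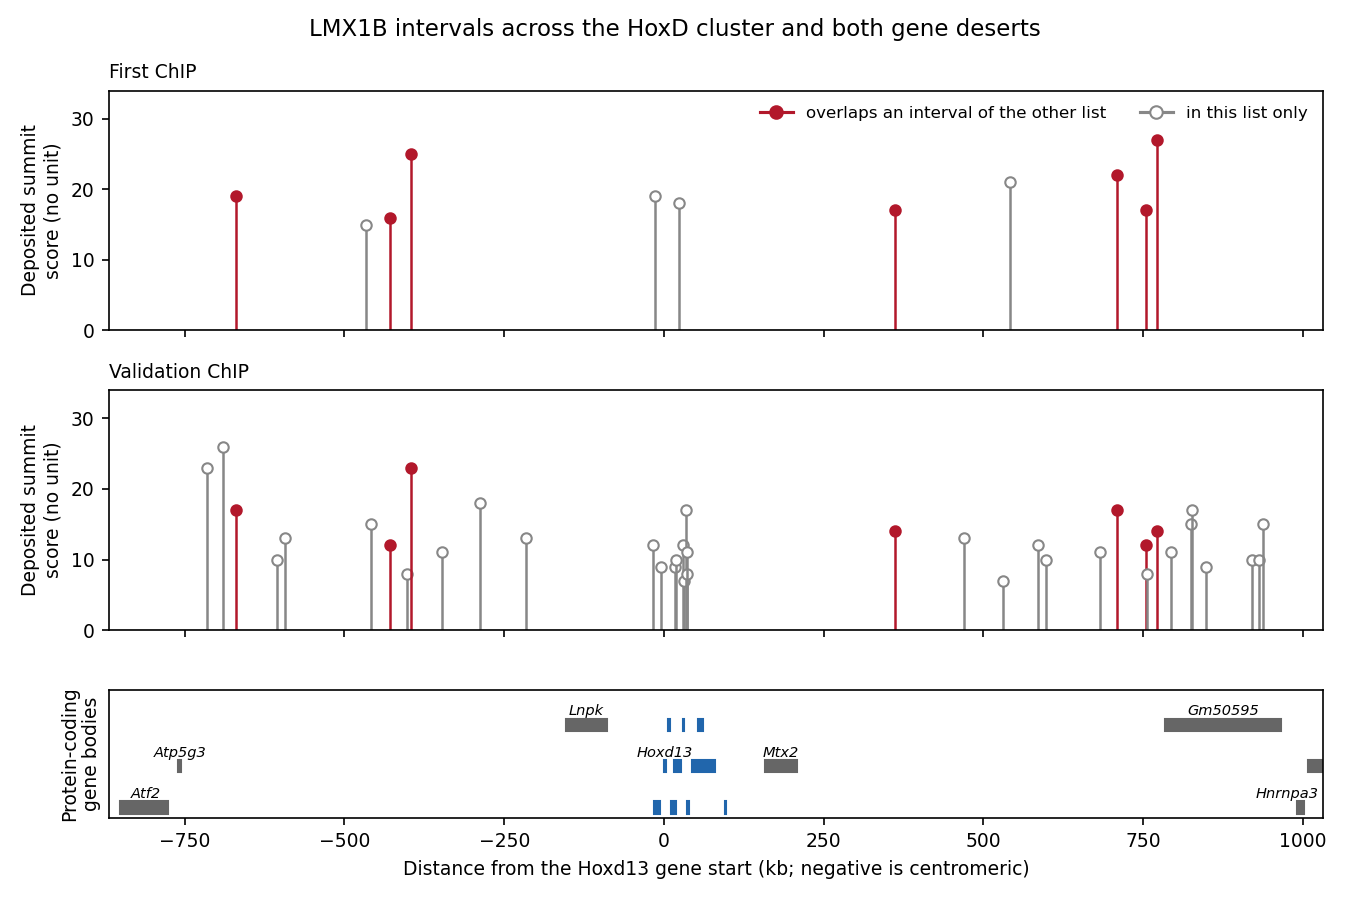
Deposited summit score (no unit) of every interval in the window, against distance from the Hoxd13 gene start in kb, for the first ChIP (top) and the validation ChIP (middle), with protein-coding gene bodies below (HoxD genes and Evx2 in blue). Filled points mark the 7 intervals shared by both lists, all outside the cluster; the 2 first-ChIP and 9 validation intervals in the cluster are open.

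Validation intervals overlapped a few promoters of the locus, and sequences before the starts are shown for that reason. RefSeq (GRCm38.p6) gives 11 promoters for the 10 genes, each 250 bases before to 50 bases after a start site. Of these, validation intervals overlapped those of Hoxd9 and Hoxd8, 2 of 11, against 1.43% of all 32851 promoters. First-ChIP intervals overlapped 0 of the 11, against 0.813%. In the deserts, validation intervals also overlapped a promoter of the noncoding gene Gm13652, without reaching its start, and a promoter of the predicted gene Gm50595. At Gm50595 the interval covered the start and 117 of the 250 bases before it, which are not printed. The 250 bases before each of the other 3 starts are printed 5′ to 3′ on the strand of the gene, with the bases inside the validation interval in capitals. Hoxd9 is chr2:74697513-74697762 on the plus strand, Hoxd8 chr2:74704365-74704614 on the plus strand, and Gm13652 chr2:75137976-75138225 on the minus strand.
Hoxd9: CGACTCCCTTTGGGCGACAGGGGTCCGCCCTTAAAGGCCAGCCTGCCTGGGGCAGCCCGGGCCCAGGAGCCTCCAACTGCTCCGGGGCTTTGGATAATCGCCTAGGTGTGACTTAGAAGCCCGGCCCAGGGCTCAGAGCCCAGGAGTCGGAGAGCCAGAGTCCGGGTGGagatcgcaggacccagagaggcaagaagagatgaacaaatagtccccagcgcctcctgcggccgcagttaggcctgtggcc
Hoxd8: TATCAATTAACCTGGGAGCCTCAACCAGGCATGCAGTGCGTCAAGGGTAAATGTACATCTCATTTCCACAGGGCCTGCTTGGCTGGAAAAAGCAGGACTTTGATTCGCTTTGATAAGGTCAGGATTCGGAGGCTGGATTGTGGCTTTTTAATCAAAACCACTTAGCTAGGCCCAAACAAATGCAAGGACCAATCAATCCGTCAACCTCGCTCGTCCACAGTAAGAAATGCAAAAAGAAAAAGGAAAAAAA
Gm13652: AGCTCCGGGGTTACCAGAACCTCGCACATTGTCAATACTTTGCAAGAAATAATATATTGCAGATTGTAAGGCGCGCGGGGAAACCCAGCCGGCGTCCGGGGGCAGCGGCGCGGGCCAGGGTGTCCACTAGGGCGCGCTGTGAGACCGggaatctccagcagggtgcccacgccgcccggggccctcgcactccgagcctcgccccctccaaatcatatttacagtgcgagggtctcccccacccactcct

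The Hoxd8 interval covered all 250 bases before its start, the Hoxd9 interval 169 of them and the Gm13652 interval 147. The GC content of the printed stretch was 44.4% for Hoxd8 and 65.2% for Hoxd9. Each stretch was searched on both strands for the LIM homeodomain palindrome TAATTA and the longer TTAATTA, which contains it. It was also searched for CAATAAA, a site type of HOX13 proteins, and for the E-box CANNTG. None of the first 3 motifs was found before Hoxd8, Hoxd9 or Gm13652. CAATAAA was found once before the Gm50595 start, outside the bases that the interval covered. CANNTG was found once before Hoxd8 and once before Hoxd9. No match says only that these letters are not in these 250 bases. The TAAT core alone was not among the motifs searched, and it occurs in the capitals of each stretch printed above. Its share over all promoters was not counted. The summits of the Hoxd9 and Gm13652 intervals lay 419 and 505 bases before the start, outside the printed stretch.

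TAATTA was found before both annotated starts of Hoxd11, 2 of 11 promoters of the members, against 4.84% of all promoters. TTAATTA was found before 1 of them, against 2.78%. The stretch before the upstream Hoxd11 start, chr2:74679308-74679557 on the plus strand, is shown with both motifs in capitals (they overlap, so 7 bases are marked).
Hoxd11: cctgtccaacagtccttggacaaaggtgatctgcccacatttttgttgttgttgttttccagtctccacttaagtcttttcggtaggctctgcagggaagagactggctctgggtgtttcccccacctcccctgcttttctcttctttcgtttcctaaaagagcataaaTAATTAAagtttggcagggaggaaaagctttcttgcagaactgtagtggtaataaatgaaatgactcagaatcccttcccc

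The marked bases lie 81 to 75 bases before that start, and no interval of either list covered them. The nearest validation summit to either Hoxd11 start lay 3661 bases downstream of the second start. CAATAAA was found before 1 of the 11 promoters, that of Evx2, against 4.2%, and CANNTG before 9 of 11, against 66.2%.

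Evx2 encodes an even-skipped homeobox protein expressed with Hoxd13 in the digits. The first ChIP listed an interval in its gene body at chr2:74653995-74654357 with a score of 19, which 832 of the 1287 intervals reached or exceeded. Its summit lay 5413 bases downstream of the Evx2 start. The validation ChIP listed none in the body but 1 on each side of it. The interval beyond the 3′ end, chr2:74650982-74651587, scored 12 (1984 of 4501 at or above) and lay 1.7 kb from the gene. The nearest first-ChIP interval was 2.41 kb away from it. The other, chr2:74663462-74664013, lay between Evx2 and Hoxd13 in the noncoding gene Gm31790 and scored 9 (4149 of 4501 at or above). So both lists marked the surroundings of Evx2, at different positions.

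Hoxd13 and Hoxd12, which pattern the digits, held no interval in their bodies in either list. The validation interval in Gm31790 was the nearest to Hoxd13, at 4.49 kb. The nearest to Hoxd12 was 8.25 kb away, in the body of Hoxd11.

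Hoxd11 and Hoxd10, which act in the forearm and more proximal segments, have overlapping bodies in the annotation. The validation ChIP listed 2 adjacent intervals inside the overlap, at chr2:74685684-74686234 with a score of 9 and chr2:74686289-74686636 with a score of 10. At least 76% of the list scored as high as either. The first ChIP listed chr2:74691234-74691563 with a score of 18 (980 of 1287 at or above). It lay in the longer annotated Hoxd10 body, with its summit 483 bases upstream of the annotated Hoxd10 start and no overlap with the 250 bases before that start. The nearest validation interval was 4.6 kb away. Whether these positions are exonic or intronic was not resolved, since the annotation used here has no exons.

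Hoxd9 and Hoxd8, genes of the middle of the cluster, had 5 validation intervals in, before or between them and no first-ChIP interval. The interval at chr2:74697034-74697681, upstream of Hoxd9, scored 12 with its summit 419 bases before the start. A second interval, chr2:74698728-74699217, lay in the Hoxd9 body with a score of 7, which 4499 of 4501 intervals reached or exceeded. Between both genes, chr2:74702050-74702739 scored 17 (604 of 4501 at or above), the highest validation score in the cluster, with its summit 2215 bases before the Hoxd8 start. The remaining 2, chr2:74703363-74703856 and chr2:74704102-74704964, scored 8 and 11, and the summit of the second of these lay 247 bases before the Hoxd8 start. Both lay in the noncoding gene Gm38462, which runs on the opposite strand and overlaps Hoxd8.

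Hoxd3, Hoxd4 and Hoxd1, at the telomeric end, act mainly in the axial skeleton and nervous system. No interval of either list lay in their bodies. The long annotated Hoxd3 body contains that of Hoxd4, and the distances to Hoxd3 below run to its centromeric end. The nearest validation interval was that over the Hoxd8 promoter, 7.46 kb from Hoxd3, 17.4 kb from Hoxd4 and 58.4 kb from Hoxd1. The nearest first-ChIP interval was that upstream of Hoxd10, at 20.6, 30.6 and 71.6 kb. The stretch without an interval of either list ran for 324 kb, from the end of the Hoxd8 interval to chr2:75028998, and held Hoxd3, Hoxd4, Hoxd1 and Mtx2, a mitochondrial import gene. It was the longest such stretch between intervals of the window. The next, of 199 kb, lay between the centromeric desert and Evx2 and held Lnpk, which shapes the endoplasmic reticulum. The 9 validation intervals of the cluster thus lay within 54 kb, from 3′ of Evx2 to Hoxd8.

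**Figure D2:**
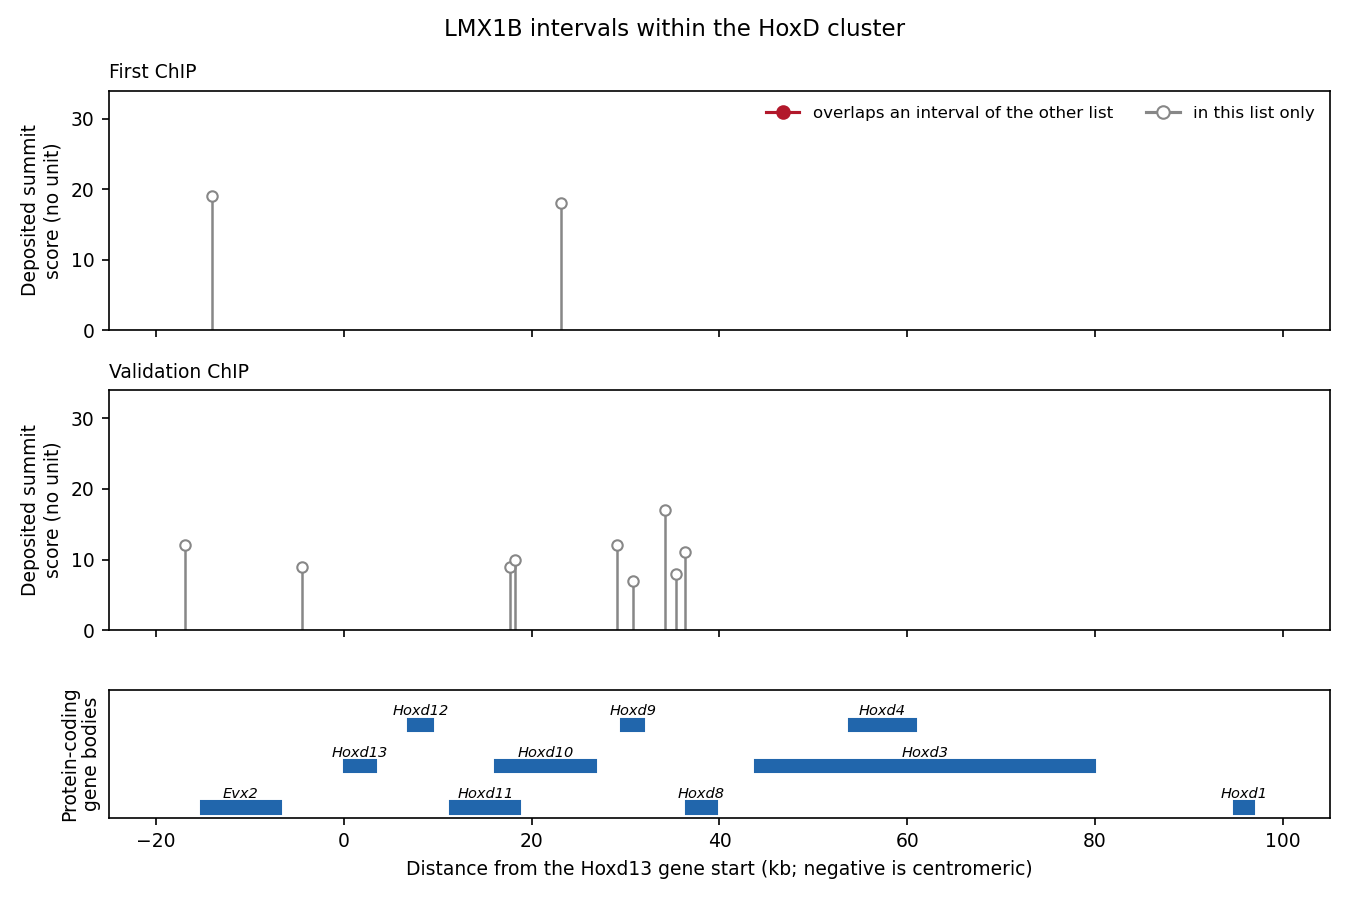
Deposited summit score (no unit) of intervals in and around the cluster, against distance from the Hoxd13 gene start in kb, for the first ChIP (top) and the validation ChIP (middle), with gene bodies below. The 9 validation intervals lie between the 3′ side of Evx2 and Hoxd8, the 2 first-ChIP intervals lie at other positions, and none is listed at Hoxd4, Hoxd3 or Hoxd1.

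With a distance of 50 kb from the gene body, 9 of 10 members had a first-ChIP interval nearby, against 8.29% of 21883 protein-coding genes. Likewise 9 of 10 had a validation interval nearby, against 18.2%. Hoxd1 was the exception in both lists. These counts rest on only 2 first-ChIP and 9 validation intervals, since neighbouring Hox genes share them. Within 10 kb the first-ChIP count was 4, against 4.12% of protein-coding genes, and the validation count was 8, against 9.4%. No member had a shared interval within 10 kb, against 1.57%, within 50 kb, against 3.13%, or within 100 kb, against 4.8%. With shares this low, a count of 0 among 10 neighbouring genes says little about the members.

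The 3 shared intervals of the centromeric desert lay between Atp5g3, a subunit gene of ATP synthase, and Lnpk, outside annotated genes. The nearest to the cluster, 380 kb from Evx2, was chr2:74272552-74272948 in the first ChIP and chr2:74272322-74273127 in the validation ChIP. It ranked high in both lists, with a score of 25 in the first ChIP (262 of 1287 at or above) and 23 in the validation ChIP (204 of 4501). Its summits lay 32 bp apart. The second, at 413 kb from Evx2 (first ChIP chr2:74239501-74239955), scored 16 and 12. The third, at 654 kb (first ChIP chr2:73998758-73999040), scored 19 and 17, and its summits were 128 bp apart, the widest gap of the 7 pairs.

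The highest validation score of the whole window was in the same desert but was not shared. The interval chr2:73977356-73978042, in the noncoding gene Gm31472, scored 26 (121 of 4501 at or above). The nearest first-ChIP interval was 20.7 kb away. Its neighbour chr2:73952435-73952996 scored 23 (204 of 4501 at or above) and was not shared either, with the nearest first-ChIP interval at 45.8 kb. Conversely, the first ChIP listed chr2:74201430-74201713 with a score of 15, and the nearest validation interval was 7.28 kb away. The other unshared validation intervals of this desert numbered 7, with scores of 8 to 18.

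The telomeric desert, between Mtx2 and Hnrnpa3, an RNA-binding protein gene, held 4 shared intervals. The nearest to the cluster lay 264 kb from Hoxd1, outside genes (first ChIP chr2:75029140-75029496), with scores of 17 in the first ChIP and 14 in the validation ChIP and summits 16 bp apart. The other 3 lay close together, at 612, 658 and 675 kb from Hoxd1. The interval at 612 kb (first ChIP chr2:75376726-75377007) scored 22 and 17 and lay where the noncoding genes Gm39857 and Gm39856 overlap. The interval at 658 kb (first ChIP chr2:75422790-75423130) scored 17 and 12, with the same summit position in both lists. The interval at 675 kb (first ChIP chr2:75439707-75440256) lay in the noncoding gene 9430019J16Rik. It had the highest first-ChIP score of the window, 27 (191 of 1287 at or above), and a validation score of 14 (1179 of 4501). A first-ChIP interval in the noncoding gene 2600014E21Rik, chr2:75209116-75209547, scored 21 and was not shared, with the nearest validation interval 10.1 kb away.

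Unshared validation intervals of the telomeric desert numbered 13, with scores up to 17. The body of 2600014E21Rik held 4 of them by midpoint, including the interval that overlapped the Gm13652 promoter. The predicted protein-coding gene Gm50595, which spans chr2:75451974-75633917, held 7 validation intervals and no first-ChIP interval. One of these, chr2:75605514-75606155 with a score of 15, overlapped an annotated Gm50595 start.

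Across the 7 pairs, each first-ChIP interval lay wholly inside its validation partner, and the summits were a median of 43 bp apart, with 6 of 7 within 100 bp. Summit positions in the lists fall mostly on a grid of 16 bp (96.3% of first-ChIP and 94.4% of validation summits), so smaller distances carry no information. Shared intervals of the window had a median score of 19 in the first ChIP against 18.5 for its unshared ones, and 14 in the validation ChIP against 11. In the whole lists these medians were 22 against 18 and 16 against 11. At or above the median score of their list were 4 of 11 first-ChIP intervals of the window, against 55.3% of the list, and 25 of 38 validation intervals, against 57.6%. The highest scores of the window, 27 in the first ChIP and 26 in the validation ChIP, lay below the list maxima of 86 and 55.

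The borders of the window were set by position, and no interval midpoint lay close to the border on the inside. In the first ChIP the outermost intervals inside lay 199 kb and 260 kb from the centromeric and telomeric border. In the validation ChIP they lay 153 kb and 94.2 kb inside. The nearest outside was a first-ChIP interval 3.68 kb beyond the telomeric border, chr2:75703267-75704085, at Nfe2l2, a stress-response regulator, with a score of 39 and no overlap with a validation interval.

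**Figure D3:**
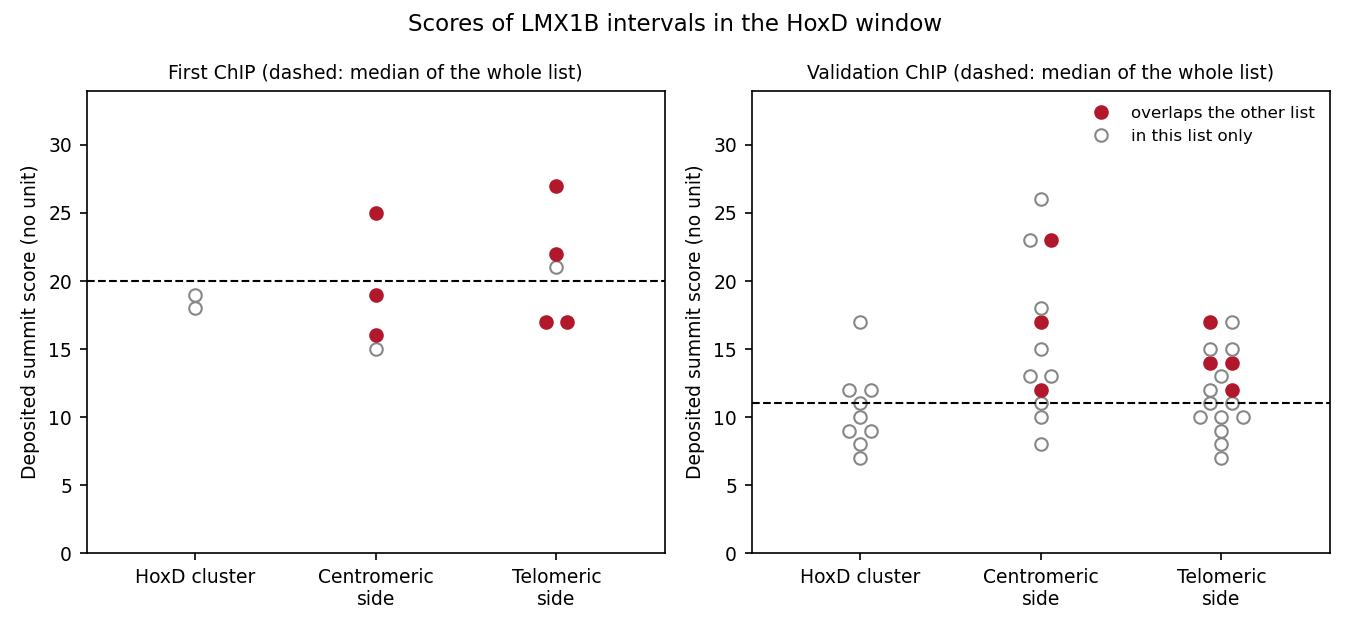
Deposited summit score (no unit) of each interval of the window in the cluster, the centromeric side and the telomeric side, for the first ChIP (left) and the validation ChIP (right). Dashed lines are the medians of the whole lists, 20 and 11; filled points are shared, and the cluster holds open points only, with scores up to 19 and 17.

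The HoxD window held many intervals for its length. It had 5.79 first-ChIP intervals per Mb, against 0.497 per Mb outside it (11.7-fold), and 20 validation intervals per Mb, against 1.74 (11.5-fold). Shared intervals were 13.5 times as dense (first-ChIP intervals, 3.68 per Mb in the window against 0.272 outside). Among 1343 windows of 1.9 Mb laid end to end over the rest of the genome, the median was 0 first-ChIP and 2 validation intervals. Of these windows, 2 had at least 11 first-ChIP intervals and none had 38 or more validation intervals, the highest being 35. Of the 2 windows with 35, 1 holds the HoxA cluster, on chromosome 6 (50500001 to 52400000), which also held 10 first-ChIP intervals, 7 of them shared. At least 7 shared first-ChIP intervals, the count of the HoxD window, were found in 6 of the 1343 windows, the highest count being 9. The HoxD window was laid around a known cluster while the others were not. When windows were instead centred on each interval elsewhere, the highest counts were 11 and 39. The HoxD count of 11 first-ChIP intervals was reached by 22 of 1274 windows, on chromosomes 1 and 9. In the validation ChIP, 15 of 4452 windows, on chromosomes 6 and 18, reached 38 intervals. Windows centred on neighbouring intervals overlap, so these counts rest on fewer loci than windows. No chance test was made of these ranks.

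Within the window, the cluster was denser than the rest, with 16.4 first-ChIP and 73.7 validation intervals per Mb, against 5.06 and 16.3 per Mb on both sides together. The cluster rates rest on 2 and 9 intervals in 0.122 Mb. The sides, 1.78 Mb in all, hold the deserts and also genes such as Atp5g3, Lnpk, Mtx2 and Hnrnpa3. The validation interval of the cluster with the most neighbours had 8 others within 50 kb, which 40 of 4501 intervals of the list (0.889%) matched or exceeded. Each of the 2 first-ChIP intervals of the cluster had 1 other within 50 kb, which 269 of 1287 intervals of that list (20.9%) matched or exceeded.

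**Figure D4:**
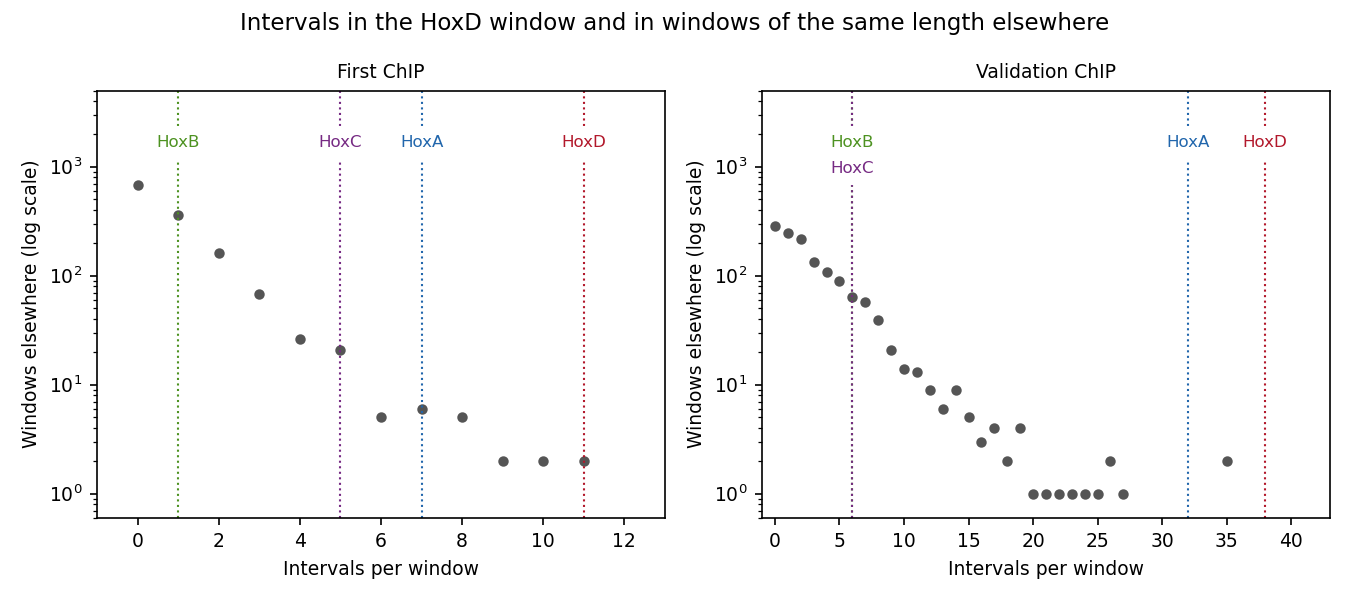
Number of windows of 1.9 Mb elsewhere in the genome (log scale) against the number of intervals they hold, for the first ChIP (left) and the validation ChIP (right), with dotted lines at the counts around the 4 Hox clusters. HoxD (11 and 38 intervals) lies at or beyond the right end of both, followed by HoxA (7 and 32), while HoxB (1 and 6) and HoxC (5 and 6) lie further left.

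The other Hox clusters were each taken with 900 kb on both sides. With those flanks HoxD held the same 11 first-ChIP and 38 validation intervals, while HoxA held 7 and 32, HoxC 5 and 6, and HoxB 1 and 6. Shared first-ChIP intervals numbered 7 around HoxD and 5 around HoxA, and 0 around HoxB and HoxC. With 500 kb on both sides, HoxD held 7 first-ChIP intervals, 3 of them shared, and HoxA 4, of which 2 were shared. HoxD then held 20 validation intervals (18 per Mb) and HoxA 22 (18.9 per Mb), so the order of both clusters turned round in the validation ChIP. In the cluster itself, the validation ChIP listed 9 intervals in HoxD and 12 in HoxA, with 1 each in HoxB and HoxC. HoxA differed in that 1 of its cluster intervals was shared, in Hoxa9 on chromosome 6 (first ChIP 52225975 to 52226836), with scores of 30 in the first ChIP and 22 in the validation ChIP. In HoxD, where Hoxd9 is the paralogue of Hoxa9, validation scores reached 17 and none was shared. HoxA had validation intervals at Hoxa7, Hoxa9 and Hoxa11, and also 2 in the annotated Hoxa3 body and 1 at 0.377 kb from it. That body is long. It lay 13.4 kb from the shared validation interval in Hoxa9, nearer than Hoxa6 (17.8 kb), Hoxa5 (21.9 kb) and Hoxa4 (34.8 kb). The intervals counted for Hoxa3 are thus not placed at Hoxa3 rather than at those genes. HoxD had none in Hoxd3, Hoxd4 or Hoxd1. These differences between clusters were not tested, since each is a single locus in 1 sample per list.

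Of the 31 paralogous genes (Hoxa, Hoxb, Hoxc and Evx1), 16 had a first-ChIP interval within 50 kb (51.6%, against 8.29% of protein-coding genes) and 25 a validation interval (80.6%, against 18.2%), and 9 had a shared one (29%, against 3.13%). Neighbouring Hox genes share intervals, so these counts rest on fewer intervals than genes. Those 9 are HoxA genes that share the Hoxa9 interval, among them Hoxa10, Hoxa7, Hoxa3 and Hoxa11. A further list held 37 genes taken as limb partners or targets of HoxD, with Lmx1b itself among them. Of these 37, 8 had a first-ChIP interval within 50 kb (21.6%, against 8.29%) and 22 a validation interval (59.5%, against 18.2%). The highest ranked of these was in Tbx5, the forelimb identity gene, with a validation score of 27 (104 of 4501 at or above) and no overlap with the first ChIP. Of these 37, 1 had a shared interval (2.7%, close to the 3.13% of protein-coding genes), Bmp7, which was named after its values were seen. Bmp7, a BMP ligand, had it in its body on chromosome 2 (first ChIP 172933784 to 172934214), with scores of 28 and 21.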

How the data were processed

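Whole limb buds were profiled by LMX1B ChIP-seq in 2 samples, each with 1 deposited list of intervals and of summits. The submitters' processing notes name BWA and build mm10; the sources used here do not give the BWA version, the peak caller or its threshold. The deposited summit score is a whole number with no stated unit or normalization. Peaks were listed per sample, and no read counts were used, so depth is unknown. The validation file also repeats the first-ChIP tracks, which were counted once.

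Tracks were tied to samples by their names. Coordinates are 1-based, with 1 added to interval starts, and summits are as listed. Genes, strands, start sites and promoter sequences came from RefSeq (GRCm38.p6, the assembly of mm10), without exons. Distances to genes run from interval midpoints to gene bodies, and distances to start sites from summits. Distances between intervals, and stretches without an interval, run between the nearest interval ends. With no genome sequence used here, motifs were searched in promoters only, and not around summits as planned. Shares have exact Clopper-Pearson intervals at 95%; no other test was made. The overlap function was tested on simulated data. Genes were named by a rule covering the members, genes at or nearest to intervals, genes at the desert ends, and 6 pathway genes with the best-ranked interval within its own list. The members and lists were chosen with earlier results of these data known. Alternatives changed the overlap rule, score minimum, window, distance and flanks. Python 3.11.15, pandas 2.3.3 and SciPy 1.17.1 were used.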

Additional observations from a re-analysis of the deposited data

Results flagged for a closer look

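A further deposited list, named Active Regions, was used above only for how many first-ChIP intervals it repeats. Of the 11 first-ChIP intervals in the HoxD window, 7 are repeated in it, and these are the same 7 that overlapped a validation interval. In the whole first list, 57.1% of intervals are repeated there. How many of the shared intervals of the whole list are repeated there is not given here, so the match of the 7 has no background share. How the authors made that list is not given in the sources used here.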

How the results depend on the processing

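No paired analysis was possible because each ChIP is a single sample and no labels pair them. Of 55 values under other settings, 34 stayed within 1.5 times the reported count or ratio. Placement by summit or by any overlap, and a window from Atp5g3 to Hnrnpa3, left 11 and 38 intervals. At or above the list's median score there were 4 of 11 first-ChIP intervals, against 55.3% of the list, and 25 of 38 validation intervals, against 57.6%. In the top 25% of scores there were 2 and 13. Requiring 50% of both intervals to overlap, 1 was shared in each list, as first-ChIP intervals are narrower; with both scores at or above the median, 3 were. Members with a first-ChIP interval numbered 4 within 10 kb, against 4.12% of protein-coding genes, and 3 within 5 kb, against 3.54%. Paralogues within 10 kb numbered 10 in the first ChIP (32.3%, against 4.12%), 16 in the validation ChIP (51.6%, against 9.4%) and 3 for shared intervals (9.68%, against 1.57%). Limb partners with a shared interval within 100 kb numbered 4 (10.8%, against 4.8%). With flanks of 500 kb, first-ChIP intervals numbered 7 for HoxD, 4 for HoxA and 0 for HoxB, and validation intervals 20 for HoxD, 22 for HoxA and 3 for HoxB; of the HoxD intervals, 3 were shared in each list. Motifs around summits were not run. Windows centred on intervals and the HoxD flanks of 500 kb were chosen after seeing the data. Without depth or replicates, an interval missing from a list may have lain just below its threshold.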
